A study of Homo sapiens with 4 samples.

Results

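The nuclear genes of respiratory chain complexes I to V were followed in UM-UC-3 cells, a long-established line from a human urothelial carcinoma, and in a subline selected for resistance to cisplatin, a platinum drug that crosslinks DNA. Members were taken by symbol: every gene whose name starts with NDUFA, NDUFB, NDUFC, NDUFS, NDUFV, UQCR, COX4 to COX8, ATP5F, ATP5M or ATP5P, and also SDHA, SDHB, SDHC, SDHD and CYC1, without pseudogenes. This gave 92 of the 13743 genes in the deposited table: 48 for complex I, 4 for complex II, 9 for complex III, 13 for complex IV and 18 for complex V. Of these, 79 encode structural subunits. The rest are 8 complex I assembly factors (NDUFAF1 to NDUFAF8), which the symbol rule takes in, the supercomplex factor COX7A2L, 2 readthrough genes and 2 noncoding transcripts. NDUFA4, long counted in complex I, is placed here with complex IV, where it is now assigned.

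The values come from cap analysis of gene expression (CAGE), which captures the capped 5′ ends of transcripts and counts reads from them, so that a level is a number of starts and is not divided by gene length. The groups compared were wild type UM-UC-3 cells (2 samples) and cisplatin-resistant cells (2 samples), the latter kept in DMEM with 10% serum and 5 µM cisplatin. How wild type cells were fed is not stated in the labels, and effects of the drug itself cannot be told apart from the acquired state. The labels do not say that replicates were separate cultures, so p-values here measure no more than how far these samples differ, and that spread may be technical. In bulk cultures, a change in every cell and a change in a subset of cells cannot be told apart.

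The respiratory chain moves electrons from NADH (complex I) and succinate (complex II) through complex III and cytochrome c to oxygen at complex IV, and complexes I, III and IV pump protons across the inner mitochondrial membrane. Complex V, the ATP synthase, lets the protons back and makes ATP. Complex II is wholly nuclear encoded, while the others each join nuclear subunits, made in the cytosol, to a few subunits translated inside the mitochondrion; the mitochondrially encoded subunits are not analysed here. The transcription factors NRF1, GABPA (which binds DNA through an ETS domain) and YY1 are known to bind the promoters of many of these nuclear genes.

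Promoter windows were read from RefSeq (250 bases before to 50 bases after the gene start, build GRCh38.p14) and matched by symbol or synonym, on the same chromosome, for 77 of the 92 members. The windows printed are those of 3 members with large decreases (NDUFA1, ATP5PF and COX7B) and of NDUFA10, the member with the largest increase, because they show that large changes occurred in genes with and without the motifs searched. Capitals mark exact matches on either strand to GCGCATGC (NRF1), CCGGAAG (the ETS motif of GABPA) or AAGATGGCG (YY1), and everything else is in lower case. The NDUFA1 window is chrX:119871582-119871881 on the plus strand, that of ATP5PF is chr21:25735005-25735304 on the minus strand, that of COX7B is chrX:77899218-77899517 on the plus strand and that of NDUFA10 is chr2:240025293-240025592 on the minus strand, each printed 5′ to 3′ in the direction of the gene.
NDUFA1: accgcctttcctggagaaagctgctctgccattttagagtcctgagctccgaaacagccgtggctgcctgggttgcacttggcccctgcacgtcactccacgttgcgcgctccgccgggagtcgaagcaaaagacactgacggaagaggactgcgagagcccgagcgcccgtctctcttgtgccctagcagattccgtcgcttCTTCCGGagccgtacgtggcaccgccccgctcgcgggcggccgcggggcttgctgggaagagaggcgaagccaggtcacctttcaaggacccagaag
ATP5PF: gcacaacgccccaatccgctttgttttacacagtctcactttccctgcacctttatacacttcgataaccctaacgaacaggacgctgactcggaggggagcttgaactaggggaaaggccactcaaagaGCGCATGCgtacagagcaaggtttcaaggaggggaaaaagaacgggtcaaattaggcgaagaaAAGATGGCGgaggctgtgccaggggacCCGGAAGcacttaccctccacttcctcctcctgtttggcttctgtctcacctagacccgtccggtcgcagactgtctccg
COX7B: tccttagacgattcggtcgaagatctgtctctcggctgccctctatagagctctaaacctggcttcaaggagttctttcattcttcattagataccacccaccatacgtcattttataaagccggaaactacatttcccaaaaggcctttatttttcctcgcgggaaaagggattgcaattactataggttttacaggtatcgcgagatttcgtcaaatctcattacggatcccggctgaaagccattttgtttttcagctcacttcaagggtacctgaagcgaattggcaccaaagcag
NDUFA10: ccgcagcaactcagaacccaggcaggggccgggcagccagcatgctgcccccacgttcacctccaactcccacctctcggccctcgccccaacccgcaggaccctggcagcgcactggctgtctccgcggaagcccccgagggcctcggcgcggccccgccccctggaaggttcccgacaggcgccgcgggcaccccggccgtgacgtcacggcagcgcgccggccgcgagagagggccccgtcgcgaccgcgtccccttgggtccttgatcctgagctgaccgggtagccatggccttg
In NDUFA1 the match is the reverse complement of the ETS motif and begins 47 bases before the start. ATP5PF holds all 3 motifs, which begin 120 (NRF1), 57 (YY1) and 30 bases (ETS) before the start. The windows of COX7B and NDUFA10 hold none of the 3, which says only that these letters are not in them.

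The windows of NDUFA6 and its divergent transcript NDUFA6-DT overlap and were counted once. Over the 76 windows counted, GCGCATGC was found in 15 (19.7%), against 3.27% of all 27305 RefSeq promoters and 5.98% of the promoters of the other tested genes. CCGGAAG was found in 21 (27.6%), against 10.7% and 21.6%, and AAGATGGCG in 8 (10.5%), against 1.85% and 4.53%. The NRF1 motif stood in 5 of the 25 counted members that rose in resistant cells and in 7 of the 27 that fell, and the ETS motif in 5 of 25 and 9 of 27. At least 1 of the 3 motifs was present in 9 of the 25 that rose and 13 of the 27 that fell. Matches describe the letters of a window and are not evidence of binding.

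Depth was alike in the 4 libraries, at about 18.2 and 18.2 M reads (wild type) and 21.2 and 17.8 M reads (resistant), as estimated from the smallest step between values, a step that was less regular in resistant replicate 1. Values are CPM, read counts scaled to a fixed total per library. Genes averaging at least 1 CPM were tested (12587 genes) with limma on log2(CPM + 1), and a gene is called higher or lower at a Benjamini-Hochberg adjusted p under 0.05 over all of them; fold changes are on that log2 scale, resistant against wild type. Of 15 urothelial and epithelial markers, 4 were listed in the table, with a summed level of 408 and 403 CPM in wild type against 144 and 139 CPM in resistant cells. KRT8 (log2 fold change -1.06) and KRT18 (-1.80) fell, KRT7 rose from 5.32 and 5.56 to 10.05 and 10.00 CPM (0.78, limma, adjusted p = 0.000734), and TP63 was below the filter. Both mesenchymal markers were listed: CDH2 rose from 20.1 and 18.5 to 44.4 and 39.8 CPM (1.08, limma, adjusted p = 4.59e-05), and VIM, at 0.04, did not pass the test. No endothelial marker of 3 was listed, the 3 of 4 fibroblast markers listed summed to at most 2.58 CPM in any sample, and the leukocyte markers CD68 and SRGN, the 2 of 5 listed, summed to 147 and 123 CPM in wild type against 102 and 94.2 CPM in resistant cells. Whether the changes of these markers have a part in the results was not tested.

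Respiratory chain genes moved in both directions, and more of them fell than rose. Of the 91 members tested, 27 rose and 36 fell in resistant cells, so 63 (69.2%) were called, beside 55.2% of all tested genes. Falls took 39.6% of the members, against 21.6% of all tested genes, and rises took 29.7%, against 33.5%. Among the 3302 genes averaging at least 50 CPM, which is closer to the level of most members, 37.5% rose and 23.6% fell. The changes were small: the median log2 fold change was -0.00 for the members and 0.09 for all tested genes. The median size of a change was 0.28, against 0.32 for all tested genes and 0.28 for those averaging at least 50 CPM. By more than 1.5-fold, 2 of the 91 members rose and 6 fell, beside 2102 and 1460 of all 12587 tested genes. Among the 3302 averaging at least 50 CPM, 353 rose and 209 fell by that much. The 4 samples of a member split by group without overlap in 77 of 91 cases (84.6%), beside 78.5% of all tested genes and 81.7% of those averaging at least 50 CPM. Resistant samples lay above in 36 of these members (39.6% of those tested, beside 46.1% of all tested genes) and below in 41 (45.1%, beside 32.3%). Separation of the groups was thus common to most tested genes and is not particular to the members for which it is given. The remaining member, the antisense transcript NDUFB2-AS1, read 0.16 and 0.17 CPM in wild type against 0.90 and 0.39 CPM in resistant cells and was below the filter.

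The split between rises and falls depended on scaling. With median-ratio scaling on top of the CPM, which moves all resistant values down relative to wild type, 14 members rose and 39 fell while all tested genes split into 3574 and 3420, against 4221 and 2724 without it. Quantile normalization gave 24 and 37 members, with 3518 and 3415 of all tested genes. Leaving out a resistant library lowered every count, to 11 and 20 members without resistant replicate 1 (2556 and 1729 of all tested genes) and to 7 and 19 without resistant replicate 2 (2643 and 1636). More members fell than rose in each of these fits. By complex, the subunits called higher and lower were 5 and 8 (I), 0 and 1 (II), 1 and 1 (III), 2 and 3 (IV) and 0 and 5 (V) without resistant replicate 1. They were 3 and 8 (I), 0 and 1 (II), 0 and 1 (III), 1 and 3 (IV) and 1 and 5 (V) without resistant replicate 2, and 7 and 13 (I), 0 and 1 (II), 0 and 5 (III), 3 and 6 (IV) and 1 and 8 (V) with median-ratio scaling.

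**Figure D1:**
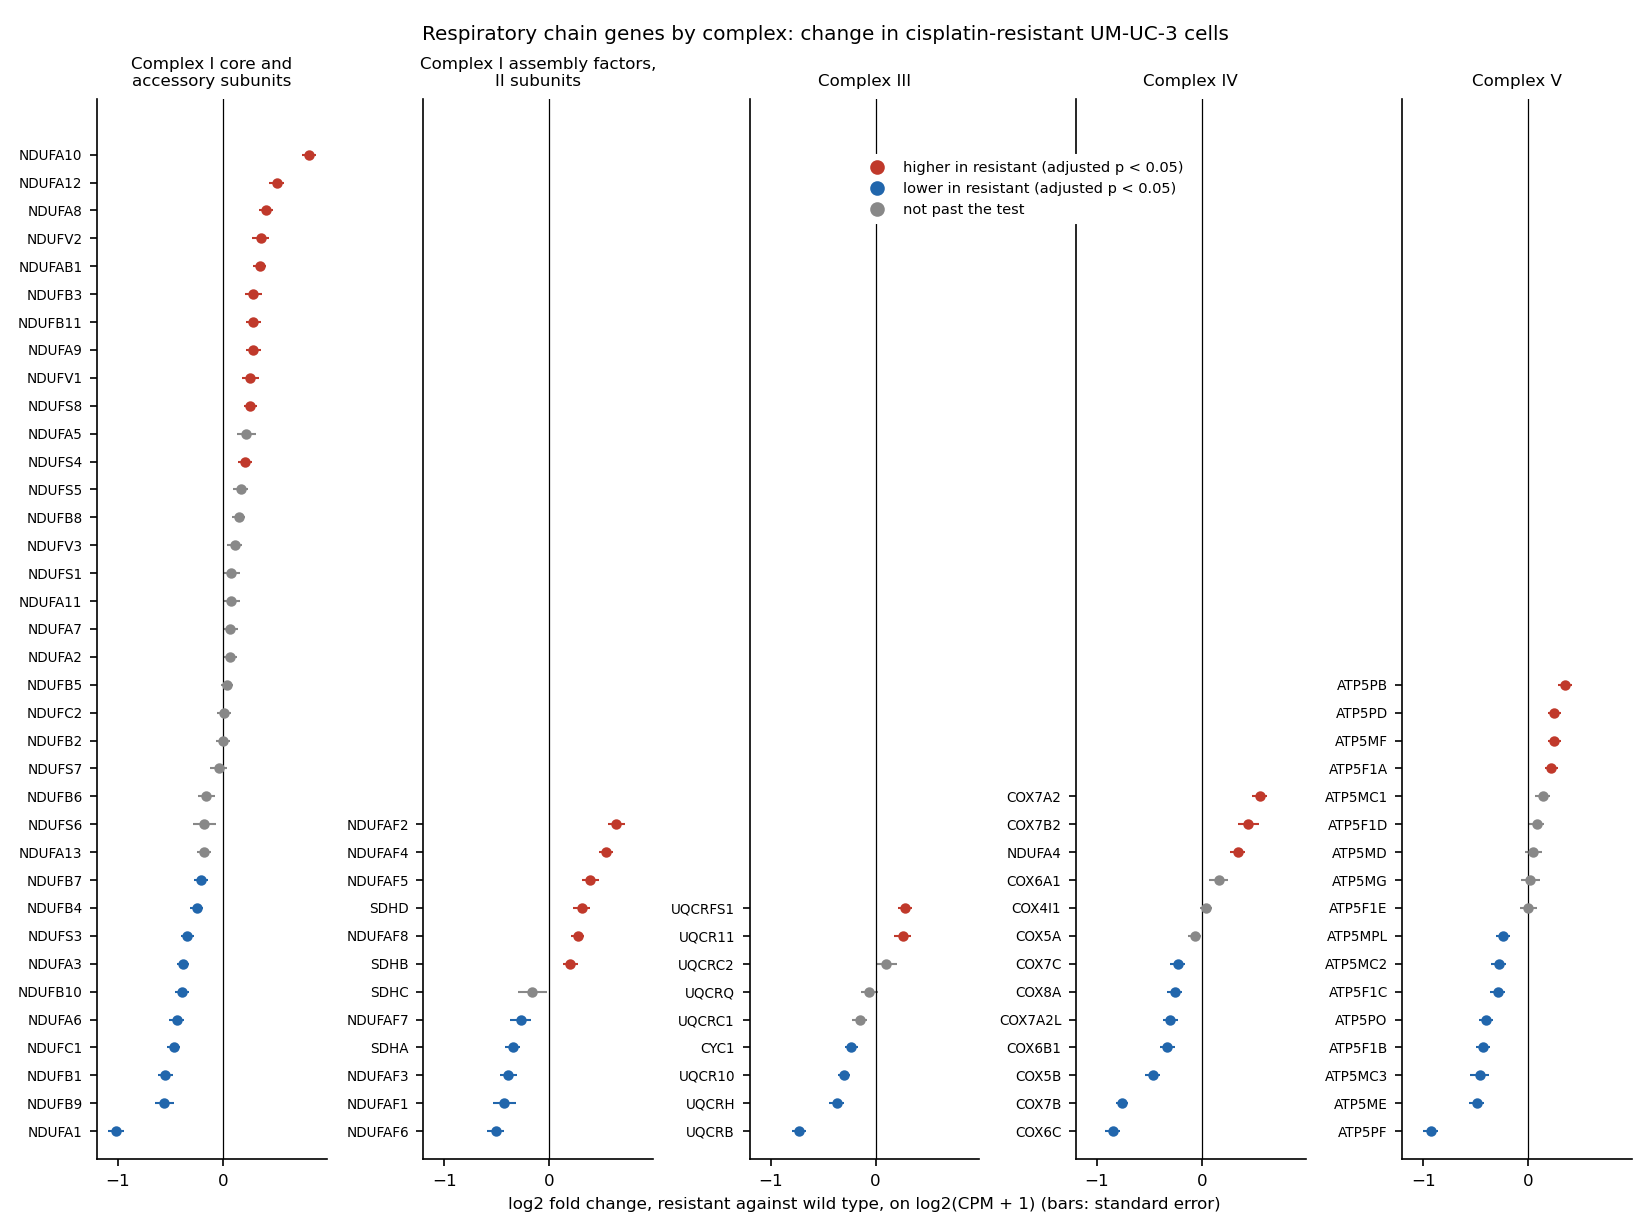
Log2 fold change of the subunits and complex I assembly factors reported here, resistant against wild type on log2(CPM + 1), in 5 panels by complex, with points coloured by call and bars giving the standard error from limma (2 samples per group). Every complex holds points on both sides of 0, from -1.02 (NDUFA1) to 0.82 (NDUFA10), and COX7A2L, the supercomplex factor, is drawn with complex IV.

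Summed over their subunits, complexes III, IV and V took a smaller part of the resistant libraries. Complex III subunits summed to 4053 and 4174 CPM in wild type against 3577 and 3668 CPM in resistant cells, and complex IV subunits to 7566 and 7592 against 6603 and 6747 CPM. Complex V subunits summed to 8876 and 9368 against 8221 and 8174 CPM. In these 3 complexes both resistant samples lay below both wild type samples, and the log2 ratios of the group means were -0.18, -0.18 and -0.15. Complex I subunits summed to 10404 and 10970.4 against 10080.2 and 10272 CPM, a log2 ratio of -0.07 with the resistant samples below, and complex II subunits to 523 and 514 against 541 and 519 CPM (0.03), where the groups overlapped. All 79 subunits together made up 3.14% and 3.26% of the wild type reads and 2.90% and 2.94% of the resistant reads. With 2 samples against 2, an exact two-sided permutation test cannot give a p below 0.333, so these sums are given without a test.

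**Figure D2:**
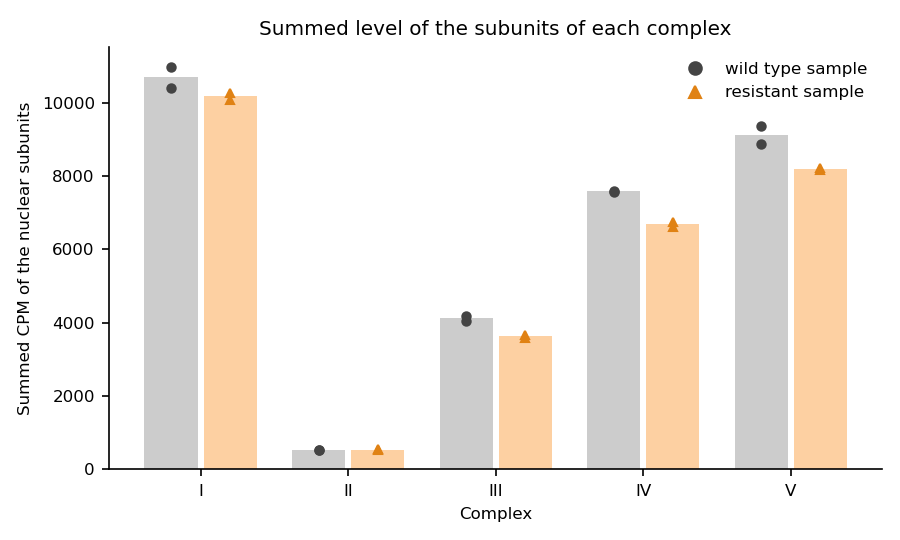
Summed CPM of the nuclear subunits of each complex, with bars for the mean of 2 samples and a point for each sample. The resistant points lie below the wild type points for complexes I, III, IV and V, and those of complex II overlap.

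In complex I, whose peripheral arm oxidises NADH and whose membrane arm pumps protons, 11 of 37 subunits rose and 11 fell (29.7% each). Of all tested genes, 33.5% rose and 21.6% fell. The share of these subunits called, 59.5%, was near the 55.2% of all tested genes, and the median log2 fold change was 0.07. Of the nuclear core subunits, which carry the flavin and the iron-sulfur clusters, the 6 described here were split. NDUFS3, of the module that passes electrons to ubiquinone, read 139 and 143 CPM in wild type against 112 and 111 CPM in resistant cells, a log2 fold change of -0.34 ± 0.06 (SE; limma, adjusted p = 0.00251). It fell with no overlap between groups. Of the core subunits at the NADH end, NDUFV2 read 241 and 271 CPM in wild type against 319 and 337 CPM in resistant cells (0.36 ± 0.08, limma, adjusted p = 0.00459), and NDUFV1, which binds the flavin, read 139 and 153 against 182 and 167 CPM (0.26 ± 0.08, limma, adjusted p = 0.0209). NDUFS8, an iron-sulfur subunit, rose from 499.7 and 488 to 589 and 597 CPM (0.26 ± 0.06, limma, adjusted p = 0.00817). NDUFS1 read 60.8 and 55.7 against 61.5 and 61.5 CPM and NDUFS7 361 and 311 against 327 and 325 CPM, and neither passed the test (limma, adjusted p = 0.398 and 0.689). Median-ratio scaling ended the calls of NDUFV1 and NDUFS8 (limma, adjusted p = 0.102 and 0.0633). NDUFS3 lost its call without resistant replicate 2 (limma, adjusted p = 0.0515), as did NDUFV2 (0.0843), and NDUFV1 and NDUFS8 lost theirs without either resistant library (0.215 and 0.0723, 0.107 and 0.128, without replicates 1 and 2). NDUFV1 also missed the threshold without wild type replicate 1 (0.0558).

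Among the 30 accessory subunits of complex I, which surround the core and are needed for its assembly and stability, 8 rose and 9 fell. These were 26.7% and 30%, beside 33.5% and 21.6% of all tested genes. The share called, 56.7%, was near the 55.2% of all tested genes. NDUFA1 (ENSG00000125356.7), a small membrane subunit encoded on chromosome X, read 599 and 695 CPM in wild type against 316 and 319 CPM in resistant cells, a log2 fold change of -1.02 ± 0.08 and 2.04 times higher in wild type (limma, adjusted p = 3.09e-05). This was the largest change among all 91 members tested, and the groups were far apart. NDUFB9 read 394 and 473 against 279.7 and 306 CPM (-0.56 ± 0.09, limma, adjusted p = 0.00148), and NDUFB1 242 and 269 against 173 and 176 CPM (-0.55 ± 0.07, limma, adjusted p = 0.000384). NDUFC1 read 365 and 376 against 262 and 269 CPM (-0.47 ± 0.06, limma, adjusted p = 0.000391). All 3 belong to the membrane arm, and in each the resistant samples lay below both wild type samples. NDUFA6, of the LYR family that binds the acyl carrier protein, fell by 0.44 on the log2 scale, NDUFB10 by 0.39, NDUFA3 by 0.38, NDUFB4 by 0.25 and NDUFB7 by 0.21.

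In the other direction, NDUFA10 (ENSG00000130414.12), an accessory subunit with a nucleoside kinase fold, read 49.6 and 53.5 CPM in wild type against 93.3 and 90.8 CPM in resistant cells, a log2 fold change of 0.82 ± 0.07 and 1.78 times wild type (limma, adjusted p = 5.13e-05). NDUFA12, which takes the place of the assembly factor NDUFAF2 late in assembly, read 176 and 165 against 240.3 and 247 CPM (0.51 ± 0.07, limma, adjusted p = 0.000343). NDUFA8 read 143 and 151 against 188 and 203 CPM (0.41 ± 0.07, limma, adjusted p = 0.00148). The resistant samples were above both wild type samples in all 3. NDUFAB1, the mitochondrial acyl carrier protein, read 277 and 284 against 353 and 364 CPM (0.35 ± 0.06, limma, adjusted p = 0.00186), and NDUFA9, NDUFB11 and NDUFB3 each rose by 0.29 and NDUFS4 by 0.21. The other 13 accessory subunits did not pass the test, with log2 fold changes from -0.18 (NDUFA13 and NDUFS6) to 0.22 (NDUFA5). NDUFB3 and NDUFS4 lost their calls with median-ratio scaling (limma, adjusted p = 0.0639 and 0.191). Calls of NDUFA1, NDUFB9, NDUFB1, NDUFC1, NDUFA6, NDUFA3, NDUFA10, NDUFA12 and NDUFA8 held in every alternative in which they were tested, and those of NDUFB10, NDUFB4, NDUFB7, NDUFAB1, NDUFA9, NDUFB11, NDUFB3 and NDUFS4 were lost without a resistant library, with limma adjusted p of up to 0.0627, 0.149, 0.223, 0.0546, 0.105, 0.105, 0.125 and 0.209 over all alternatives.

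All 8 complex I assembly factors were called, 4 in each direction, beside 55.2% of all tested genes called. NDUFAF2, the paralogue of NDUFA12 that holds its place during assembly, read 49.8 and 52.3 CPM in wild type against 76.6 and 83.3 CPM in resistant cells (0.64 ± 0.08, limma, adjusted p = 0.000234). NDUFAF4 read 103 and 102 against 154 and 147 CPM (0.54 ± 0.07, limma, adjusted p = 0.00024), while NDUFAF3, its partner in building the ubiquinone module, read 63.6 and 65.1 against 50.8 and 47.1 CPM (-0.39 ± 0.08, limma, adjusted p = 0.0028). Partners thus went opposite ways, each with no overlap between groups. NDUFAF5, which hydroxylates an arginine of NDUFS7, read 23.5 and 24.6 against 31.5 and 32.3 CPM (0.39 ± 0.08, limma, adjusted p = 0.00459), and NDUFAF8, which stabilises it, rose by 0.27. NDUFAF6 read 43.9 and 42.1 against 29.7 and 29.9 CPM (-0.51 ± 0.08, limma, adjusted p = 0.000826), NDUFAF1, of the intermediate assembly complex, 11.8 and 12.9 against 8.54 and 9.21 CPM (-0.43 ± 0.11, limma, adjusted p = 0.0115), and NDUFAF7, a protein arginine methyltransferase, fell by 0.27. NDUFAF8 lost its call with median-ratio scaling (limma, adjusted p = 0.0582). The calls of NDUFAF2, NDUFAF4 and NDUFAF6 held in every alternative. Those of NDUFAF3 and NDUFAF5 ended without resistant replicate 2 (limma, adjusted p = 0.0554 and 0.0614), those of NDUFAF1 and NDUFAF8 without either resistant library (up to 0.0974 and 0.101), and that of NDUFAF7 when any of the 4 libraries was left out (up to 0.236).

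Complex II, which links the TCA cycle to the chain, had no common direction. SDHA, the flavoprotein that oxidises succinate, read 211 and 199 CPM in wild type against 160.4 and 159 CPM in resistant cells (-0.35 ± 0.07, limma, adjusted p = 0.0022). SDHB, the iron-sulfur subunit, read 192 and 179 against 218 and 209 CPM (0.20 ± 0.07, limma, adjusted p = 0.034), and the membrane anchor SDHD read 115 and 131 against 158 and 147 CPM (0.31 ± 0.08, limma, adjusted p = 0.0129). The catalytic subunit fell while its iron-sulfur partner and an anchor rose, all without overlap, as in 78.5% of all tested genes. The other anchor, SDHC, was listed at 4.77 and 5.23 against 4.72 and 4.04 CPM and did not pass the test (-0.16 ± 0.14, limma, adjusted p = 0.346). The call of SDHA held in every alternative in which it was tested, but SDHB and SDHD lost theirs without resistant replicate 1 (limma, adjusted p = 0.257 and 0.148), without resistant replicate 2 (0.145 and 0.0622) and with median-ratio scaling (0.183 and 0.0535), and SDHB also without wild type replicate 2 (0.0604).

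In complex III, the cytochrome bc complex, 2 of 9 subunits rose (22.2%, beside 33.5% of all tested genes) and 4 fell (44.4%, beside 21.6%). The median log2 fold change was -0.15. UQCRB (ENSG00000156467.10), known as the ubiquinone-binding protein, read 264 and 289 CPM in wild type against 162 and 169.7 CPM in resistant cells, a log2 fold change of -0.73 ± 0.07 and 1.67 times higher in wild type (limma, adjusted p = 8.27e-05). UQCRH, the hinge protein that helps dock cytochrome c, read 1329.9 and 1335 against 1040.25 and 1025 CPM (-0.37 ± 0.07, limma, adjusted p = 0.00221). UQCR10 fell from 458 and 447 to 362 and 373 CPM (-0.30 ± 0.06, limma, adjusted p = 0.00441). These 3 smaller subunits separated the groups fully, as did 78.5% of all tested genes. The redox subunits parted: CYC1, the haem protein that passes electrons to cytochrome c, read 443 and 421 against 366 and 369 CPM (-0.23 ± 0.06, limma, adjusted p = 0.0154), and UQCRFS1, the Rieske iron-sulfur protein, read 236 and 258 against 301 and 299 CPM (0.28 ± 0.07, limma, adjusted p = 0.00859). UQCR11 rose by 0.26. The core proteins UQCRC1 and UQCRC2 and the small subunit UQCRQ did not pass the test, at -0.15, 0.10 and -0.06. Both rises, of UQCRFS1 and UQCR11, lost their calls with median-ratio scaling (limma, adjusted p = 0.0573 and 0.102). The call of UQCRB held in every alternative, and the other 5 were lost without 1 or both of the resistant libraries, with limma adjusted p of up to 0.0755 (UQCRH), 0.0961 (UQCR10), 0.161 (CYC1), 0.104 (UQCRFS1) and 0.293 (UQCR11).

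Complex IV, cytochrome c oxidase, had 3 of 12 subunits higher (25%, beside 33.5% of all tested genes) and 6 lower (50%, beside 21.6%). The median log2 fold change was -0.15. The decreases were led by 2 small transmembrane subunits. COX6C (ENSG00000164919.11) read 1398 and 1439 CPM in wild type against 786 and 791 CPM in resistant cells, a log2 fold change of -0.85 ± 0.07 and 1.80 times higher in wild type (limma, adjusted p = 3.07e-05), and COX7B (ENSG00000131174.7) read 644 and 639 against 376 and 380 CPM (-0.76 ± 0.06, 1.70 times, limma, adjusted p = 3.57e-05). In both, replicates lay close together and groups far apart. COX5B, a zinc-binding subunit on the matrix side, read 557 and 584 against 406 and 417 CPM (-0.47 ± 0.07, limma, adjusted p = 0.000498), while COX5A, a subunit without haem or metal, read 229 and 234 against 214 and 226 CPM and did not pass the test (limma, adjusted p = 0.352). COX6B1 fell by 0.33, COX8A by 0.26 and COX7C by 0.23.

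The increases in complex IV were in COX7A2, NDUFA4 and COX7B2. COX7A2, the widely expressed isoform of subunit VIIa, read 650.1 and 702 CPM in wild type against 996 and 986 CPM in resistant cells (0.55 ± 0.07, 1.47 times, limma, adjusted p = 0.000321). Its relative COX7A2L, which takes part in joining complexes III and IV into supercomplexes, read 72.5 and 75.0 against 60.6 and 58.7 CPM (-0.30 ± 0.07, limma, adjusted p = 0.0068), so the pair moved in opposite directions without overlap. NDUFA4 read 596 and 630.2 against 785 and 764 CPM (0.34 ± 0.07, limma, adjusted p = 0.00334). COX7B2, described as a testis isoform, was detected at 18.5 and 20.9 against 25.9 and 28.4 CPM (0.44 ± 0.10, limma, adjusted p = 0.00618), opposite in direction to COX7B. COX4I1, a nuclear subunit with regulatory roles, read 460.2 and 475 against 489 and 473 CPM, and COX6A1 622 and 554 against 614 and 704 CPM; neither passed the test (limma, adjusted p = 0.61 and 0.155) and both overlapped between groups. The isoforms COX4I2, COX6A2, COX6B2, COX7A1 and COX8C and the NDUFA4 relative NDUFA4L2 are not analysed here. Calls of COX6C, COX7B, COX5B and COX7A2 held in every alternative, and those of COX6B1, COX8A, COX7C, COX7A2L, NDUFA4 and COX7B2 were lost without a resistant library (limma, adjusted p up to 0.0932, 0.221, 0.23, 0.089, 0.0833 and 0.0824).

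In complex V, 4 of 17 subunits rose (23.5%, beside 33.5% of all tested genes) and 8 fell (47.1%, beside 21.6%). The median log2 fold change was -0.00. The peripheral stalk, which holds the catalytic head still against the turning rotor, held the widest contrast. Its subunit ATP5PF (ENSG00000154723.12) read 1150.4 and 1085 CPM in wild type against 584 and 590 CPM in resistant cells, a log2 fold change of -0.93 ± 0.07 and 1.90 times higher in wild type (limma, adjusted p = 2.08e-05), and ATP5PO, the stalk subunit that contacts the head, read 322 and 306 against 246 and 231 CPM (-0.40 ± 0.07, limma, adjusted p = 0.00151). ATP5PB, the long membrane-anchored stalk subunit, read 349.5 and 376 against 472 and 453 CPM (0.35 ± 0.07, limma, adjusted p = 0.00303), and ATP5PD rose from 251 and 258 to 303 and 302 CPM (0.25 ± 0.06, limma, adjusted p = 0.00929). All 4 stalk subunits separated the groups, 2 downwards and 2 upwards, beside 78.5% of all tested genes separating in either direction. In the catalytic head, ATP5F1B, the beta subunit that carries the catalytic sites, read 799 and 835 against 603 and 611 CPM (-0.43 ± 0.07, limma, adjusted p = 0.000895), whereas its partner ATP5F1A, the alpha subunit, read 287 and 282 against 339 and 323 CPM (0.22 ± 0.06, limma, adjusted p = 0.0184). ATP5F1C, the gamma subunit of the rotor, fell by 0.29, and ATP5F1D and ATP5F1E, at 0.08 and -0.00, did not pass the test.

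The 3 genes ATP5MC1, ATP5MC2 and ATP5MC3 encode the same mature protein of the proton-carrying c ring. ATP5MC3 read 355 and 419 CPM in wild type against 273 and 289 CPM in resistant cells (-0.46 ± 0.09, limma, adjusted p = 0.00265), and ATP5MC2 read 386 and 360.5 against 309.8 and 305 CPM (-0.28 ± 0.07, limma, adjusted p = 0.00773). ATP5MC1 read 161 and 175 against 184 and 185 CPM and did not pass the test (0.14 ± 0.07, limma, adjusted p = 0.124). Of the remaining membrane subunits, ATP5ME, which acts in dimer formation, read 367 and 397 against 269.9 and 272 CPM (-0.49 ± 0.07, limma, adjusted p = 0.000474), ATP5MPL fell by 0.24 and ATP5MF rose by 0.25. ATP5MD and ATP5MG, at 0.05 and 0.02, did not pass the test. Median-ratio scaling ended the calls of ATP5F1A, ATP5PD and ATP5MF (limma, adjusted p = 0.131, 0.0762 and 0.0674). The calls of ATP5PF, ATP5PO, ATP5F1B and ATP5ME held in every alternative, and those of ATP5PB, ATP5PD, ATP5F1A, ATP5F1C, ATP5MC3, ATP5MC2, ATP5MPL and ATP5MF were lost without a resistant library (limma, adjusted p up to 0.0727, 0.116, 0.213, 0.125, 0.056, 0.111, 0.189 and 0.132).

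Of the 63 calls, 23 held under all alternatives in which the member was tested: 17 of the 36 decreases and 6 of the 27 increases. The alternatives did not bear on both directions alike: with median-ratio scaling, which moves resistant values down, 14 members rose and 39 fell. Every call lost with that scaling was a rise. The share of calls that held over all tested genes is not given here. The increases that held were COX7A2, NDUFA10, NDUFA12, NDUFA8, NDUFAF2 and NDUFAF4. No member changed direction past the threshold in any alternative.

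**Figure D3:**
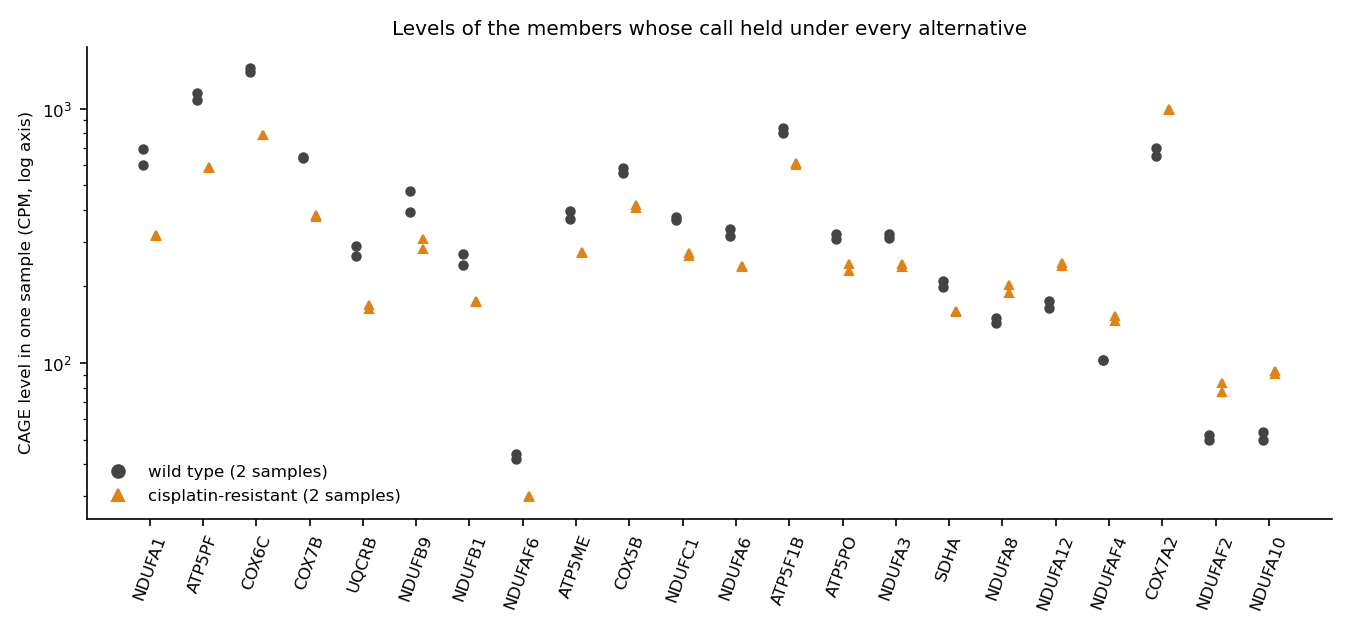
CPM of 22 of the 23 members whose call held under all alternatives, on a log axis, with a point for each of the 4 samples and genes ordered by log2 fold change from NDUFA1 (-1.02) to NDUFA10 (0.82). Wild type circles lie above the resistant triangles in the 16 members at the left and below them in the 6 at the right.

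The direction of a member went with the direction of the genes around it on the chromosome. For each of the 88 members other than readthrough and noncoding genes, the median log2 fold change was taken over up to 10 tested genes on each side in the GENCODE 29 order, which together spanned a median of 3.25 Mb. Across these members the fold change of a member and its flanking median had a Pearson r of 0.80 (Spearman 0.77), and r was 0.81 with overlapping neighbours left out. For comparison, r was 0.40 over the 11319 other tested genes (Spearman 0.48). Over the 2949 of them averaging at least 50 CPM, r was 0.51 (Spearman 0.57). These are descriptions across genes of the same 4 libraries; genes are not independent replicates, and some members share neighbours.

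Of the 29 members with the lowest flanking medians (-0.64 to -0.05), 0 rose and 25 fell. Of the 29 with the highest (0.18 to 0.84), 18 rose and 1 fell, the latter being COX7C. In the middle 30 members, 8 rose and 9 fell. NDUFA1, at -1.02, stood among genes with a median of -0.64, of which 19 of 20 were called lower, ATP5PF, at -0.93, among genes at -0.55, and COX6C, at -0.85, among genes at -0.48. NDUFA10, at 0.82, stood among genes at 0.84. Of the 61 called members in this set, 54 had the sign of their flanking median and 7 had the opposite sign: ATP5ME (-0.49 among genes at 0.10), ATP5F1B (-0.43 among genes at 0.14), NDUFC1 (-0.47 among genes at 0.04), NDUFAF1, COX7C, SDHA and ATP5MPL. COX7B (-0.76 among genes at -0.23) and NDUFA4 (0.34 among genes at 0.81) shared the sign of their neighbours but differed from them by -0.53 and -0.48 on the log2 scale. No share over the other tested genes, which also went with their neighbours, is given for these counts. The counts are thus not read as particular to the members. What sets the common direction of a region was not tested.

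**Figure D4:**
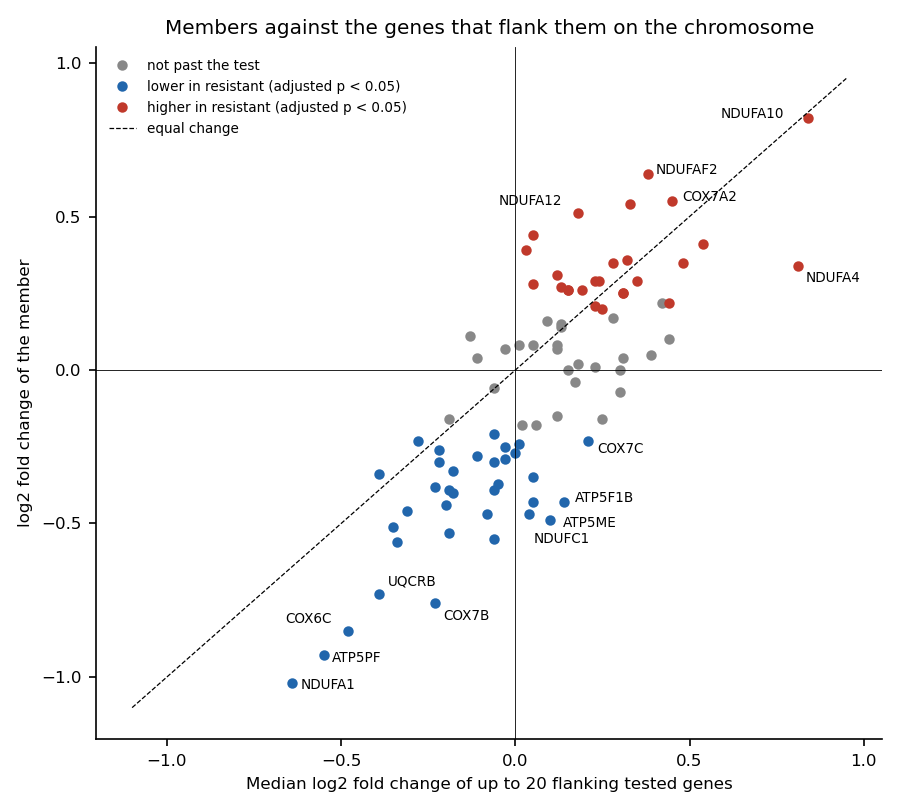
Log2 fold change of 88 members (vertical) against the median log2 fold change of up to 20 flanking tested genes (horizontal), coloured by call, with a dashed line at equal change. Points run from NDUFA1 at the lower left (-0.64, -1.02) to NDUFA10 at the upper right (0.84, 0.82), and ATP5ME, ATP5F1B and COX7C lie to the right of the vertical line below 0.

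Set beside the other genes of their chromosome, members did not always go with the majority. On 11 of 22 chromosomes the direction with more called members was also that with more of the other called genes, on 7 it was the opposite one, and on 4 the members were evenly split. All 5 members on chromosome 8 fell (COX6C, UQCRB, NDUFB9, NDUFAF6 and CYC1), and 48.3% of the 424 other tested genes on that chromosome fell while 12.5% rose. On chromosome X, 2 of 3 members fell, NDUFA1 and COX7B, as did 54.3% of 372 other genes, while NDUFB11 rose. All 3 members on chromosome 22 fell (NDUFA6, NDUFA6-DT and UQCR10), beside 37.9% of the other genes there, and on chromosome 21 ATP5PF and ATP5PO fell of 3 members, beside 46.8%. On chromosome 7, 3 of 5 tested members rose and 0 fell (NDUFA4, ATP5MF and its readthrough gene ATP5MF-PTCD1), beside 50.2% of the other genes rising. Against the majority, NDUFB4 and NDUFAF3 fell on chromosome 3 and 0 of 4 members rose, beside 39.2% of the other genes rising and 16.3% falling. On chromosome 4, NDUFC1 and ATP5ME fell and COX7B2 rose, beside 31.8% rising and 14% falling, and on chromosome 10 ATP5F1C was the only called member of 3 and fell, beside 46% rising. The other chromosomes of this kind were 2, 11, 15 and 20, with little to set the direction. Other genes were near even on chromosome 11 (184 rose and 185 fell) and on chromosome 2 (223 and 212). Chromosomes 15 and 20 had 1 called member each. The same limits hold for some of the 11 chromosomes that went with the majority. Other genes were near even on chromosome 19 (210 rose and 223 fell), and chromosome 9 had 1 called member.

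Some members share a promoter region with a gene on the other strand. In 28 pairs of a member and a protein-coding gene that start within 1000 bases of each other on opposite strands, 7 had both genes called (25%), and in all 7 the direction was the same. Among 917 such pairs of other tested protein-coding genes, 285 (31.1%) had both called, and 250 of these (87.7%) moved in the same direction. RNF113A, a splicing factor opposite NDUFA1, read 25.4 and 24.9 CPM in wild type against 13.1 and 13.2 CPM in resistant cells (-0.89, limma, adjusted p = 0.000115). ERCC8, a transcription-coupled repair gene whose start lies 56 bases from that of NDUFAF2, read 7.18 and 9.20 against 14.5 and 14.4 CPM (0.76, limma, adjusted p = 0.00159). The other pairs were UQCRH with LRRC41 and UQCR10 with ZMAT5, which fell (the calls of LRRC41 and ZMAT5 were lost without resistant replicate 1, limma, adjusted p = 0.0713 and 0.059), and NDUFAF5 with ESF1, ATP5PB with WDR77 and ATP5F1A with HAUS1, which rose. ATP5PF overlaps GABPA, which read 27.1 and 27.9 against 20.9 and 19.8 CPM (-0.42, limma, adjusted p = 0.00422, and 0.0582 without resistant replicate 2). The labels do not say whether counting used the strand, so reads of overlapping genes may not have been separated.

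Copies and shared rows limit some values. Of the members, 13 had all 4 values in common with another row of the table, such as NDUFC2 and its readthrough gene NDUFC2-KCTD14, so these are counted as rows and not as independent measurements. Processed copies of several members were listed: UQCRBP1 read 619 and 728 CPM in wild type against 444 and 471 CPM in resistant cells (-0.55, limma, adjusted p = 0.00103), beside 264 and 289 against 162 and 169.7 CPM for UQCRB, and COX6CP1 read 149 and 149 against 82.3 and 87.6 CPM (-0.80, limma, adjusted p = 3.82e-05). How reads were split between a gene and its copies is uncertain. NDUFB1P1 fell and COX7A2P2 and ATP5PDP4 rose, each in the direction of its parent gene. Summing each copy with its member gave 28 rises and 36 falls, against 27 and 36.

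Other genes that build, regulate or feed the chain are given beside the shares of all tested genes, of which 33.5% rose and 21.6% fell, with a median of 0.09. Of 22 tested assembly factors of complexes I to III outside the symbol rule, 8 rose (36.4%) and 2 fell (9.09%), and the median log2 fold change was 0.15. The share called, 45.5%, was below the 55.2% of all tested genes. TTC19, which clears fragments of the Rieske protein from complex III, read 22.3 and 18.8 CPM in wild type against 48.4 and 43.0 CPM in resistant cells (1.12 ± 0.11, limma, adjusted p = 7.04e-05), and the complex I assembly factor TMEM126B read 28.0 and 25.4 against 46.4 and 47.7 CPM (0.80 ± 0.08, limma, adjusted p = 0.000123). TMEM126A, its homologue, rose by 0.48, and UQCC1, needed for cytochrome b synthesis, fell by 0.47. All 4 calls held in every alternative, and without resistant replicate 2 the list gave 5 rises.

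Of 30 assembly genes of complexes IV and V, 13 rose (43.3%, beside 33.5% of all tested genes) and 5 fell (16.7%, beside 21.6%), with a median of 0.16. ATPAF1, a chaperone of the ATP synthase beta subunit, read 37.9 and 38.4 CPM in wild type against 78.8 and 73.1 CPM in resistant cells (0.97 ± 0.08, limma, adjusted p = 2.59e-05), opposite in direction to ATP5F1B. SURF1, needed for cytochrome c oxidase assembly, read 17.6 and 18.6 against 34.6 and 37.6 CPM (0.96 ± 0.09, limma, adjusted p = 6.84e-05). COA6, which serves copper delivery, rose by 0.80 and COX11 by 0.51. These 4 calls held in every alternative, but the split of the list did not: it was 9 rises and 10 falls with median-ratio scaling, 8 and 9 with quantile normalization, and 6 and 0 when either of the resistant libraries was left out.

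Regulators of mitochondrial biogenesis gave 7 rises (41.2%, beside 33.5% of all tested genes) and 2 falls (11.8%, beside 21.6%) of 17, with a median of 0.22. PPRC1, a coactivator of the PGC-1 family, read 36.7 and 31.3 CPM in wild type against 68.1 and 67.4 CPM in resistant cells (0.98 ± 0.09, limma, adjusted p = 6.32e-05). TFAM, which packages and transcribes mitochondrial DNA, read 132 and 151 against 196 and 192 CPM (0.45 ± 0.08, limma, adjusted p = 0.0016), and the helicase TWNK rose by 0.56. Of the 3 factors whose motifs were searched, GABPA was 1 of the 2 genes of the list that fell. It read 27.1 and 27.9 against 20.9 and 19.8 CPM (-0.42 ± 0.09, limma, adjusted p = 0.00422). Its call was lost without resistant replicate 2. NRF1 itself read 6.14 and 5.23 against 5.52 and 5.51 CPM and YY1 32.9 and 32.3 against 38.9 and 36.9 CPM, and neither passed the test (limma, adjusted p = 0.843 and 0.0522). Without resistant replicate 1 the list gave 4 rises and 1 fall, and 0 falls without resistant replicate 2.

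Of the carriers, inhibitor and supercomplex factors around the chain, 3 of 13 rose (23.1%, beside 33.5% of all tested genes) and 4 fell (30.8%, beside 21.6%), COX7A2L being also a member. CYCS, cytochrome c itself, read 572 and 619 CPM in wild type against 764 and 769 CPM in resistant cells (0.37 ± 0.07, limma, adjusted p = 0.00261, and up to 0.0632 without a resistant library). Among the ADP/ATP carriers, SLC25A5 read 404 and 336 against 225 and 221 CPM (-0.72 ± 0.09, limma, adjusted p = 0.000283), and SLC25A4, the heart and muscle isoform, read 0.55 and 0.50 against 3.87 and 3.88 CPM (1.68 ± 0.14, limma, adjusted p = 4.3e-05), so the isoforms moved in opposite directions. VDAC1, the outer membrane pore, fell by 0.44 and MICOS13 by 0.41. When either of the resistant libraries was left out, the list gave 1 rise. The calls of VDAC1, MICOS13 and the ADP/ATP carriers held in every alternative in which the gene was tested.

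Of 21 TCA cycle and pyruvate entry genes, 3 rose (14.3%, beside 33.5% of all tested genes) and 9 fell (42.9%, beside 21.6%). The median was -0.18. Most of them act in the supply of NADH and succinate to the chain. The list also holds the kinases PDK1, PDK2 and PDK3, which do not, and the falls of PDK1 and PDK3 are among the 9. The share called, 57.1%, was near the 55.2% of all tested genes. The largest falls were in genes of pyruvate dehydrogenase control: PDK3 read 23.6 and 23.4 CPM in wild type against 2.41 and 3.65 CPM in resistant cells (-2.62 ± 0.16, limma, adjusted p = 7.34e-06) and PDK1 61.4 and 65.4 against 19.7 and 17.1 CPM (-1.73 ± 0.09, limma, adjusted p = 4.58e-06). Both encode kinases that inactivate the pyruvate dehydrogenase complex. PDHA1, the subunit they phosphorylate, read 107 and 119 against 62.1 and 54.0 CPM (-0.95 ± 0.09, limma, adjusted p = 6.54e-05), and IDH2, mitochondrial isocitrate dehydrogenase, 15.2 and 16.4 against 5.00 and 3.48 CPM (-1.70 ± 0.15, limma, adjusted p = 5.91e-05). These 4 calls held in every alternative. The list gave 1 rise and 5 falls without resistant replicate 1, 1 and 4 without resistant replicate 2, and 1 and 12 with median-ratio scaling.

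**Figure D5:**
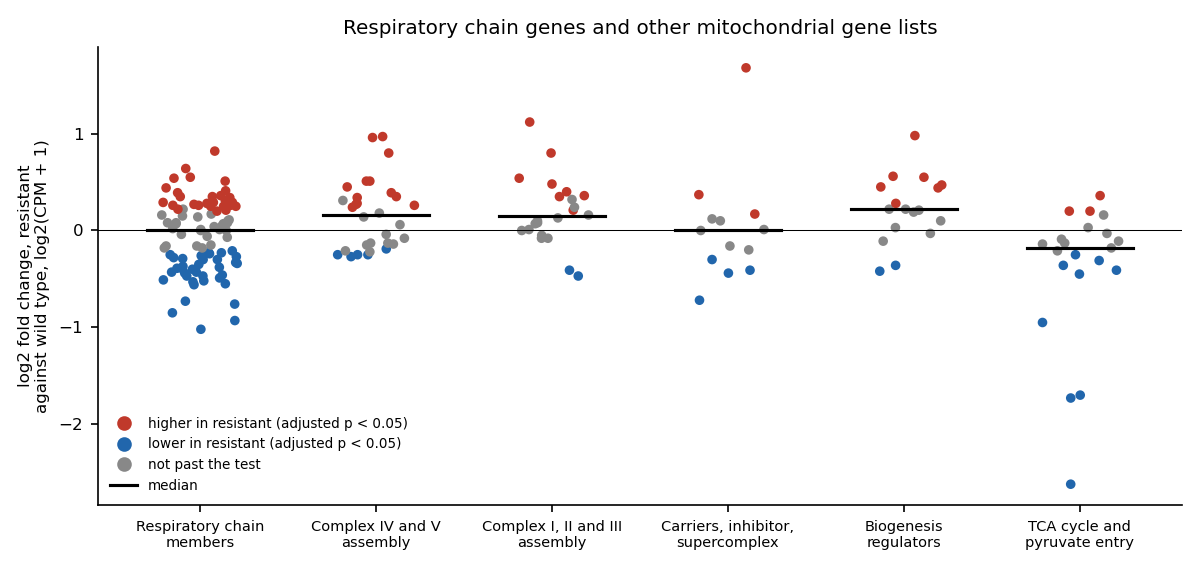
Log2 fold change of the 91 tested members and of the tested genes of 5 other mitochondrial lists, coloured by call, with a line at the median of each list. Medians run from -0.18 (TCA cycle and pyruvate entry) to 0.22 (biogenesis regulators), and the members lie between -1.02 and 0.82 around a median of -0.00.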

How the data were processed

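CAGE libraries of 2 wild type and 2 cisplatin-resistant UM-UC-3 samples were analysed, grouped by their titles. The deposited table gives CPM per gene for each sample, scaled by the authors to the total of each column. The submitters' processing notes name BWA 0.5.9 as a tool and list hg19 and mm9 without saying what each was used for. How reads were counted, on which annotation and with or without strand are points not given in the sources used here. Genes of the table therefore get no coordinates: chromosomes, gene order and overlaps come from GENCODE 29, in which 99.1% of the identifiers matched, and promoter coordinates are those of the RefSeq table.

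Log2(CPM + 1) values of the 12587 genes averaging at least 1 CPM were fitted with limma 3.58.1 (R 4.3.3; lmFit, and eBayes with a trend), without covariates, and p-values were adjusted by Benjamini-Hochberg over all of them, with a threshold of 0.05. The scripts were tested on simulated data. Complexes and lists are described by counts and medians and were not tested as sets. All members may be named, with values in every sample for the largest changes of each complex, complex II, core subunits of complex I and the isoform pairs, and up to 4 genes of each other list by smallest adjusted p; NRF1, YY1, CYCS and genes beside a member were added after their values were seen. The members and lists were chosen with earlier results of these data known. The mitochondrially encoded list (13 genes) had 0 in the table. Alternatives were other filters, pseudocounts, scalings and variance models, leaving out rows that share all values, leaving out each replicate (the lone sample of a group is then assumed to vary like the other group) and the replicate number as a block. A count model was not used because the values of resistant replicate 1 did not all give whole reads. The values of 1 member, counted with the rest, are not reported here.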

Additional observations from a re-analysis of the deposited data

How the results depend on the processing

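Of 131 alternative values of the counts, medians and sums, 102 were marked the same and 29 moved. These marks do not measure closeness. With median-ratio scaling the medians of complexes III and IV both went from -0.15 to -0.24, and only that of complex IV was marked moved. The number of all tested genes called higher, marked the same, went from 4221 to 3574. The cause of the shifts was not tested. Some values near 0 changed sign: with median-ratio scaling the complex I median went from 0.07 to -0.01. The log2 ratio of the complex II sums went from 0.03 to -0.05. With median-ratio scaling, 14 members rose, and the medians of complexes I to V were -0.01, -0.06, -0.24, -0.24 and -0.09. The log2 ratios of the summed CPM of complexes I to V were then -0.16, -0.05, -0.27, -0.27 and -0.24. Quantile normalization gave medians of 0.00 for complex I and -0.26 for complex III. A filter at 5 CPM, which removes SDHC, moved the complex II median to 0.20, and leaving out rows that share all values moved that of complex V to -0.12.

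Leaving out 1 replicate at a time gave 7 to 31 members higher and 19 to 38 lower, 2556 to 4316 of all tested genes higher and 1636 to 2787 lower, and medians of 0.03 to 0.07 (I), -0.04 to 0.08 (II), -0.22 to -0.08 (III), -0.19 to -0.12 (IV) and -0.10 to 0.02 (V). The low ends of the counts came from leaving out a resistant library. Of the 40 calls lost in at least 1 of 14 alternatives, 22 were lost only when a replicate was left out, 13 were lost with median-ratio scaling and 9 without the variance trend.

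No sign of pairing by replicate number was seen: the replicate differences of the groups had a correlation of -0.079 across 12587 genes. With a single difference per group, this cannot show that the samples were unpaired. With the replicate block, 28 members rose and 36 fell (4320 and 2778 of all tested genes), and NDUFAF7 lost its call. Summing pseudogene rows with their members was chosen after seeing the data. The planned count test was not run. NDUFB2-AS1, under 1 CPM in every sample, and SLC25A4, NDUFA6-DT and SDHC, at a few CPM, rest on the fewest reads among the members and list genes given with values.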
